A study of Mus musculus with 30 samples.

Results

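Interferon-stimulated effector genes, the genes whose products carry out the antiviral state, were followed as a list of 36 mouse genes through every bulk count table and both single-cell count matrices. The 36 were found by symbol in all 4 bulk tables, which list 49492 to 56691 genes each, and 34 of them (not Mx1 or Mx2) among the 32285 genes of the single-cell matrices. The samples were primary mouse heart cells labelled cardiac fibroblasts (CFs), all of genotype WT: 28 libraries of bulk RNA in 14 groups (n = 2 each) and 1 single-cell library at each of 2 ages. The study asked why CFs of older hearts are harder to turn into induced cardiomyocytes, and what the nuclear receptor gene Nr4a3 does in that process. CFs cultured for 3 days came from neonatal pups (P1-P3) and from mice of 3, 12 and 24 months. A second set of neonatal, 3-month and 18-month CFs, labelled day 3, had received MGT (Mef2c, Gata4 and Tbx5, transcription factors used together to reprogram fibroblasts) or, as control, LacZ, a bacterial enzyme gene. Neonatal CFs overexpressing Nr4a3 (OENr4a3) were set against OECtrl cells. Their labels say day 10 and the design text day 7, and name no MGT for either. CFs of 3-month mice with MGT and a hairpin RNA against Nr4a3 (shNr4a3) were set against those with MGT and shNT, at day 7. Both single-cell libraries were of MGT-treated cells, neonatal and of 24 months. The labels give no strain. Whether the 2 replicates of a group came from different animals is not labelled, and the p-values therefore refer to the spread between libraries, which may be technical.

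Type I and type III interferons bind their receptors and activate receptor-bound kinases. A transcription factor complex that contains Irf9 then binds the interferon-stimulated response element (ISRE) in the promoters of effector genes. In the list, Isg15 encodes a ubiquitin-like protein, Uba7 its activating enzyme, Herc6 and Trim25 ligases, and Usp18 the protease that removes it and restrains the receptor. The Ifit genes encode proteins that bind foreign RNA, and Mx1 and Mx2 antiviral GTPases. The Oas and Oasl genes encode a family whose active enzymes make oligoadenylates that switch on RNase L. Rsad2 encodes viperin, which makes a chain-terminating nucleotide, and Cmpk2, its neighbour in the genome, a nucleotide kinase. Bst2 encodes tetherin, Ifitm3 a membrane protein that hinders viral entry and Lgals3bp a secreted glycoprotein. Parp9 and Dtx3l encode partners in a ubiquitin ligase complex, and Parp12 and Parp14 ADP-ribosyltransferases. Eif2ak2 encodes the RNA-activated kinase PKR, Ifi204 a nucleic acid binding protein of the HIN family, and Ifi27 and Ifi27l2a small hydrophobic proteins.

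Promoter sequences are shown for Isg15, Ifit1 and Rsad2, which rose strongly in 3-month against neonatal CFs, and for Ifit2, which moved less in most comparisons. They were picked by these changes and are examples only. Promoters were taken from RefSeq (build GRCm38.p6), which gave 28 promoters for 26 of the 36 members. Each covers 250 bases before the start of the gene and a short stretch after it. The ISRE core searched was GAAANNGAA on either strand, and capitals mark its matches, which overlap where runs are longer. The 120 bases before the start are printed on the strand of the gene.
Isg15 (chr4:156200819-156200938, minus strand): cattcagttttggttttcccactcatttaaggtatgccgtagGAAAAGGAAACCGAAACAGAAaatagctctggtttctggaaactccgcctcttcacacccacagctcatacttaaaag
Ifit1 (chr19:34640769-34640888, plus strand): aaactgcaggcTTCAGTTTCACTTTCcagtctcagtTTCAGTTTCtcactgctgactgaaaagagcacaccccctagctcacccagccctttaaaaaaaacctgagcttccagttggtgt
Rsad2 (chr12:26456453-26456572, minus strand): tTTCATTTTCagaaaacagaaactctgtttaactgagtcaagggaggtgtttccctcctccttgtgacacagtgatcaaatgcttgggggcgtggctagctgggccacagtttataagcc
Ifit2, first promoter (chr19:34550574-34550693, plus strand): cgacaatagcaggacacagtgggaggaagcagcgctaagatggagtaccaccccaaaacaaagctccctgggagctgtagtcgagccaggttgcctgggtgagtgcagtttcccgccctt
Ifit2, second promoter (chr19:34550968-34551087, plus strand): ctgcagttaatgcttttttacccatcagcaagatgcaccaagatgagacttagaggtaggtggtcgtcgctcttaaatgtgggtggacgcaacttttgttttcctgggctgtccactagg
The core occurred in 10 of the 28 member promoters, against 7.13% of all 32851 promoters. By gene it occurred in 10 of the 26 members with a promoter. Those were Bst2, Ifit1, Ifit3, Ifit3b, Isg15, Oas1a, Oas3, Rsad2, Trim25 and Trim30a. Where present, the match nearest to the start lay 9 to 134 bases before it, with a median of 76.5. The letters were found in neither promoter of Ifit2. They were also not found in this window for Ifi44, Cmpk2, Oasl1 and Oasl2, whose log2FC in 3-month against neonatal CFs ran from 3.84 (Oasl2) to 4.39 (Oasl1), and were found for Trim25 (1.17).

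Depth was 14.28 to 43.45 M counts per bulk library. Levels are in CPM, counts per M scaled with TMM factors. Xist, transcribed from the inactive X chromosome of female cells, was at 1277 and 1288 CPM in neonatal CFs, at most 0.479 CPM at 3 and 12 months and 775 and 833 CPM at 24 months. Among LacZ and MGT cells the neonatal libraries had 440 to 548 CPM of Xist, and no adult library exceeded 0.568 CPM. The 8 fibroblast markers were all above 1 CPM in every CF library. Nr4a3 itself was at 1.85 to 2.49 CPM in OECtrl and 175 to 178 CPM in OENr4a3 cells, and at 8.18 to 8.84 CPM with shNT and 0.431 to 0.744 CPM with shNr4a3, as labelled. The 4 bulk tables were scaled and tested separately, so levels set side by side across tables carry no test. In bulk RNA, fewer cells of a type and less RNA per cell cannot be told apart.

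Against neonatal CFs, nearly the whole list was higher in adult CFs, most at 3 months. At 3 months 34 of the 36 members rose and 1 fell by edgeR's quasi-likelihood test (adjusted p under 0.05), with a median log2 fold change (log2FC) of 3.28, against 0.01 over all 16466 genes tested. Of all genes 28.0% rose and 24.4% fell. At 12 months 35 rose and none fell, with a median of 1.91, where 29.7% of all genes rose and 4191 of the 16466 fell. At 24 months 34 rose and 1 fell, with a median of 2.78, where 27.9% of all genes rose and 26.6% fell. The count of 0 falling at 12 months held with DESeq2 as well, and no member was lower at an unadjusted p under 0.05. At 3 months the 6 largest log2FC were 5.96 for Ifit1, 5.59 for Ifit3b, 5.36 for Oas2, 4.97 for Mx1, 4.87 for Mx2 and 4.68 for Rsad2.

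Isg15, at 3.38 and 2.79 CPM in neonatal CFs, was at 74.6 and 72.8 CPM at 3 months, 24.9 and 28.5 CPM at 12 months and 64.6 and 63.5 CPM at 24 months. No adult library overlapped a neonatal one, and the 12-month pair sat between the neonatal pair and the others. The rise was 23.7-fold at 3 months (log2FC 4.57 ± 0.10, adjusted p = 2.6e-27), 8.6-fold at 12 and 20.6-fold at 24 months. Ifit1, whose product binds foreign RNA, was at 3.05 and 2.96 CPM in neonatal and 157 and 218 CPM in 3-month CFs (log2FC 5.96 ± 0.36, adjusted p = 0.000154). At 12 months it was at 46.6 and 63.6 CPM and at 24 months at 130 and 125 CPM. Oas2 was at 1.27 and 1.25 CPM in neonatal cells and at 55.6 and 48.4 CPM at 3 months (log2FC 5.36 ± 0.14, adjusted p = 5.46e-26). Both genes were higher in every adult library than in either neonatal one.

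By role group the rises were as follows, and differences between groups were not tested. Both genes of the viperin locus rose, with 4.68 for Rsad2 and 4.05 for Cmpk2 at 3 months. In the ISG15 system the log2FC ran from 1.17 for Trim25 to 4.57 for Isg15, and in the OAS group from 2.59 for Oas3 to 5.36 for Oas2. The PARP and DTX3L group spanned 1.62 for Parp12 to 2.76 for Parp14, and the membrane and secreted group 1.81 for Ifitm3 to 2.67 for Lgals3bp. Mx1 rose by 4.97 and Mx2 by 4.87 on the log2 scale. Among the remaining genes Rtp4, a chaperone of receptors, had the largest log2FC (4.49) and Epsti1 the smallest (0.89, adjusted p = 0.127). Mx1 counts were low, and at 12 months its call was lost without either neonatal library (adjusted p = 0.207 and 0.132), as was that of Rsad2 (adjusted p = 0.0529 and 0.0515). At 24 months that of Mx1 was lost without either neonatal library or replicate 2 of the 24-month CFs (adjusted p = 0.101 to 0.177).

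Ifi27 broke from the list in CFs. At 3 months Ifit2 rose with the list but, like Trim25, by less than most members, and Epsti1 had few counts. Ifi27 was at 43.7 and 39.6 CPM in neonatal, 34 and 38.8 CPM in 3-month, 60.6 and 66.6 CPM in 12-month and 34.8 and 36.8 CPM in 24-month CFs. Its highest pair was that at 12 months, the age at which the other members were lowest among adults, and the neonatal, 3-month and 24-month pairs lay close together. It fell slightly at 3 months (log2FC -0.20 ± 0.07, adjusted p = 0.0255) and 24 months (log2FC -0.22 ± 0.08, adjusted p = 0.0124), calls that were lost with DESeq2 (adjusted p = 0.0956 and 0.0695). They were also lost without replicate 1 of the neonatal CFs (adjusted p = 0.212 and 0.146) and without replicate 1 of the older group (adjusted p = 0.348 and 0.0663). At 12 months it rose (log2FC 0.61 ± 0.07, adjusted p = 8.97e-09). Ifi27l2a, its neighbour on chromosome 12 (chr12:103442167-103443680, next to Ifi27 at chr12:103434211-103440239, GRCm38), went from 3.05 and 3.35 CPM to 69.4 and 64 CPM at 3 months (log2FC 4.38 ± 0.12, adjusted p = 1.75e-23). Both lie on opposite strands and do not overlap.

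Ifit2 rose 2.15-fold at 3 months, from 42.1 and 42.7 CPM to 83.9 and 98.3 CPM, where its neighbours in the Ifit cluster on chromosome 19 rose 15.1-fold (Ifit3), 48.1-fold (Ifit3b) and 62.2-fold (Ifit1). Ifit3 and Ifit3b are near-identical copies, and reads from one could be counted to the other. Epsti1, an epithelial-stromal interaction gene, was at 0.704 and 0.284 CPM in neonatal and 0.989 and 0.91 CPM in 3-month CFs and was not called at any adult age. These low levels limit what its missing calls show.

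Cell type markers moved with age in the same libraries. The 8 fibroblast markers summed to 23590 to 23720 CPM in neonatal CFs. At 3, 12 and 24 months they summed to 28860 to 29430, 18030 to 19030 and 24930 to 25720 CPM. The summed level of the 11 macrophage markers was 369.6 to 374 CPM in neonatal CFs and 158 to 183, 251 to 266 and 248 to 262 CPM at 3, 12 and 24 months. The 8 endothelial markers summed to 954 to 964 CPM in neonatal and at most 178 CPM in adult CFs, and the 8 cardiomyocyte markers to 1051 to 1138 and at most 33.7 CPM. Of the 5 lymphocyte markers 4 were at 0 in both neonatal and both 3-month libraries. Epicardial and mesothelial markers (6) summed to 153 to 155 CPM in neonatal and at most 4.18 CPM in adult CFs, and pericyte and smooth muscle markers (6) to 509 to 528 and at most 175 CPM. The part of these lists, and that of Xist, in the differences between ages was not tested.

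**Figure D1:**
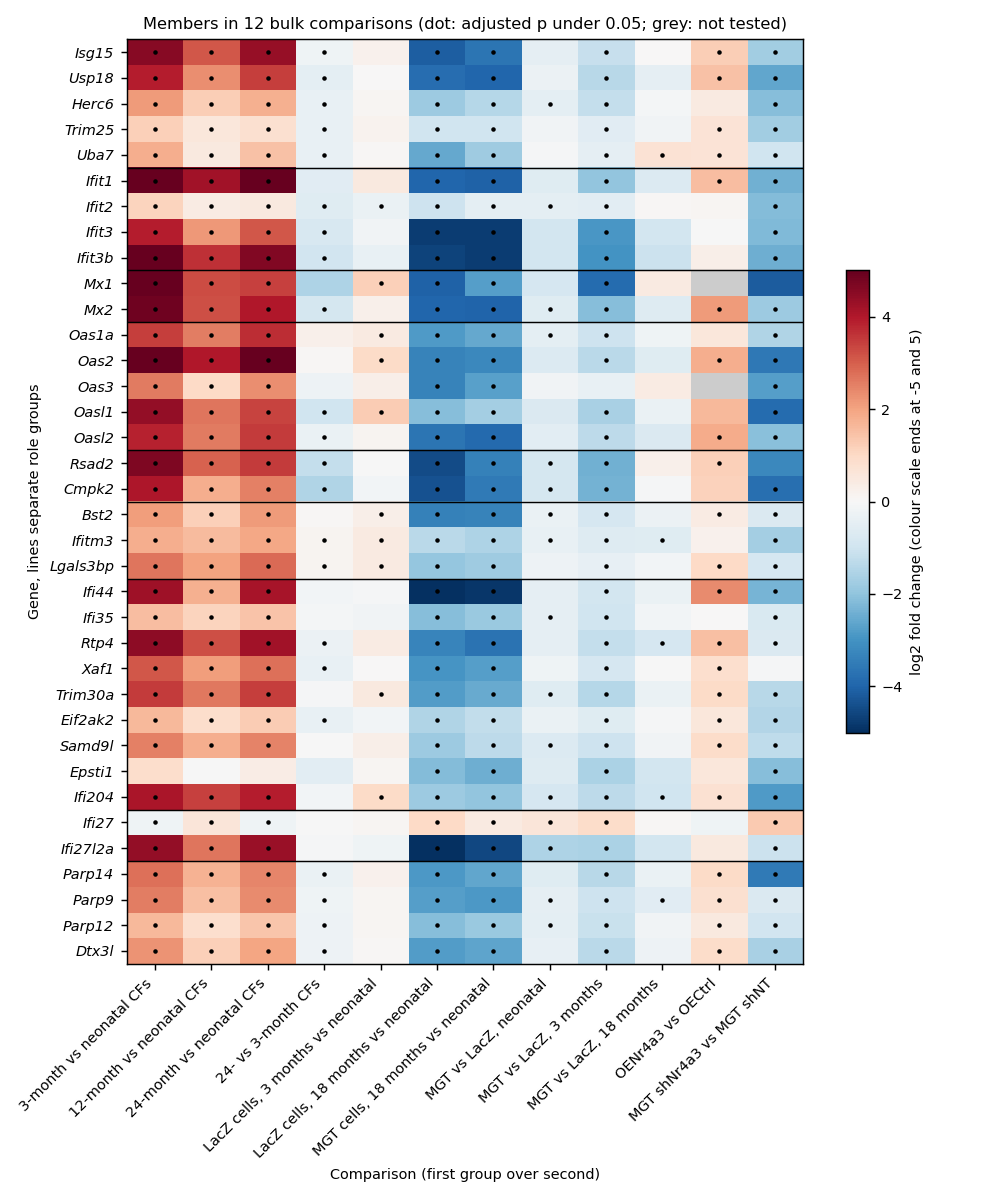
Log2 fold changes of the 36 members (rows, by role group) in 12 bulk comparisons (columns), with a dot where the adjusted p was under 0.05 and grey where a gene was not tested. The 3 columns of adult against neonatal CFs are red and those of 18-month against neonatal LacZ and MGT cells blue for nearly every gene, and the row of Ifi27 is near white or of the other colour in all of them but 12-month CFs.

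Among adult CFs the list was lowest at 12 months. Against 3 months, 34 members fell and 1 (Ifi27) rose, with a median log2FC of -1.05, where 15.5% of all genes fell and 13% rose. The 6 largest changes were -2.47 for Ifi44, -2.24 for Cmpk2, -1.92 for Ifit3b, -1.76 for Ifit1, -1.73 for Ifit3 and -1.73 for Rsad2. Ifi44 was at 49.4 and 42.9 CPM at 3 months and 6.02 and 10.4 CPM at 12 months (log2FC -2.47 ± 0.17, adjusted p = 5.85e-07). Cmpk2 was at 21.4 and 28.2 CPM and then 4.7 and 5.72 CPM (log2FC -2.24 ± 0.15, adjusted p = 3.18e-13). The pairs did not overlap for either gene. Fitted on only the groups compared, the falls of Ifit1 and Rsad2 were not called (adjusted p = 0.061 and 0.0738). Ifi27 was 1.75-fold higher at 12 months (log2FC 0.81 ± 0.07, adjusted p = 1.09e-10), and Epsti1 was not called (log2FC -0.91 ± 0.49, adjusted p = 0.179).

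From 12 to 24 months 31 members rose and Ifi27 fell (log2FC -0.83 ± 0.07, adjusted p = 1.32e-10), with a median log2FC of 0.77, where 10.8% of all genes rose and 8.07% fell. The 6 largest rises were 2.34 for Ifi44, 1.66 for Ifi27l2a, 1.40 for Oas2, 1.36 for Oas3, 1.26 for Isg15 and 1.20 for Ifit1. The call of Ifit1 was lost when either library of either age was left out (adjusted p = 0.0797 to 0.132). Not called were Ifit2 (0.08), Mx1 (0.16), Epsti1 (0.39) and Rsad2 (0.53, adjusted p = 0.381). At 24 months Rsad2 was thus at 18.1 and 17 CPM, beside 8.02 and 15.9 CPM at 12 months, and the 12-month pair spanned a wider range than the 24-month pair.

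Between 3 and 24 months 20 members fell and 2 rose, where 9.47% of all genes fell and 8.85% rose, and the median log2FC was -0.31. Among called members the largest falls were those of the viperin locus, with -1.51 for Cmpk2 and -1.20 for Rsad2. Mx1 had a larger difference that was not called (log2FC -1.55 ± 0.49, adjusted p = 0.0823). Cmpk2 was at 21.4 and 28.2 CPM at 3 months and 9.1 and 8.27 CPM at 24 months, without overlap (log2FC -1.51 ± 0.13, adjusted p = 4.29e-10). The other large falls were -1.01 for Oasl1, -0.95 for Ifit3b, -0.87 for Mx2 and -0.82 for Ifit3. All 5 genes of the ISG15 system and all 4 of the PARP and DTX3L group fell, with log2FC down to -0.47 for Usp18 and -0.32 for Parp14. In the OAS group log2FC was 0.24 for Oas1a, 0.04 for Oas2 and -0.25 for Oas3, none called, while Oasl1 and Oasl2 fell. Ifi44 (-0.13), Ifi27l2a (-0.07), Bst2 (0.05) and Ifi27 (-0.02) were not called. Ifitm3 (log2FC 0.12 ± 0.04, adjusted p = 0.0271) and Lgals3bp (log2FC 0.14 ± 0.04, adjusted p = 0.0154) rose slightly. Without replicate 2 of the 3-month CFs the count fell to 13 and both small rises were lost (adjusted p = 0.339 and 0.233). Both were also lost without replicate 2 of the 24-month CFs (adjusted p = 0.18 and 0.113). Without replicate 2 of the 3-month CFs those of Parp9, Parp12, Dtx3l and Herc6 were lost as well. The calls of Rsad2, Ifit3 and Isg15 were lost when any of the 4 libraries was left out (adjusted p = 0.0687 to 0.238, 0.0576 to 0.188 and 0.0663 to 0.151).

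Levels per gene length showed how unequal the members were. In RPKM (reads per kilobase of exon and per M reads, mean ± SD, n = 2), Ifitm3 stood highest in 3-month CFs at 916 ± 36.1, followed by Lgals3bp at 199 ± 7.77, Bst2 at 190 ± 8.71, Ifit3 at 154 ± 20.4, Ifi27l2a at 144 ± 8.19 and Isg15 at 105 ± 1.77. Lgals3bp and Bst2 did not differ beyond their spread, nor did Ifit3 and Ifi27l2a. Oas3 at 0.575 ± 0.0491 and Epsti1 at 0.409 ± 0.024 were lowest. In neonatal CFs Ifitm3 was at 260 ± 9.96, Bst2 at 44.3 ± 5.39, Lgals3bp at 31.3 ± 0.0283 and Ifi27 at 28.4 ± 1.97, while Isg15 was at 4.38 ± 0.595 and Mx1 at 0.063 ± 0.0301.

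The same age stood at very different levels in different tables. Neonatal LacZ cells had Isg15 at 387 ± 14.5 RPKM and Rsad2 at 34.1 ± 6.77, where untreated neonatal CFs had 4.38 ± 0.595 and 0.359 ± 0.0436 and the control cells of the overexpression (OECtrl) 12.2 ± 1.39 and 0.476 ± 0.108. Ifi27 was at 32.3 ± 0.0354 RPKM in neonatal LacZ cells and 28.4 ± 1.97 in untreated neonatal CFs. Treatment, day and table cannot be told apart in these values.

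**Figure D2:**
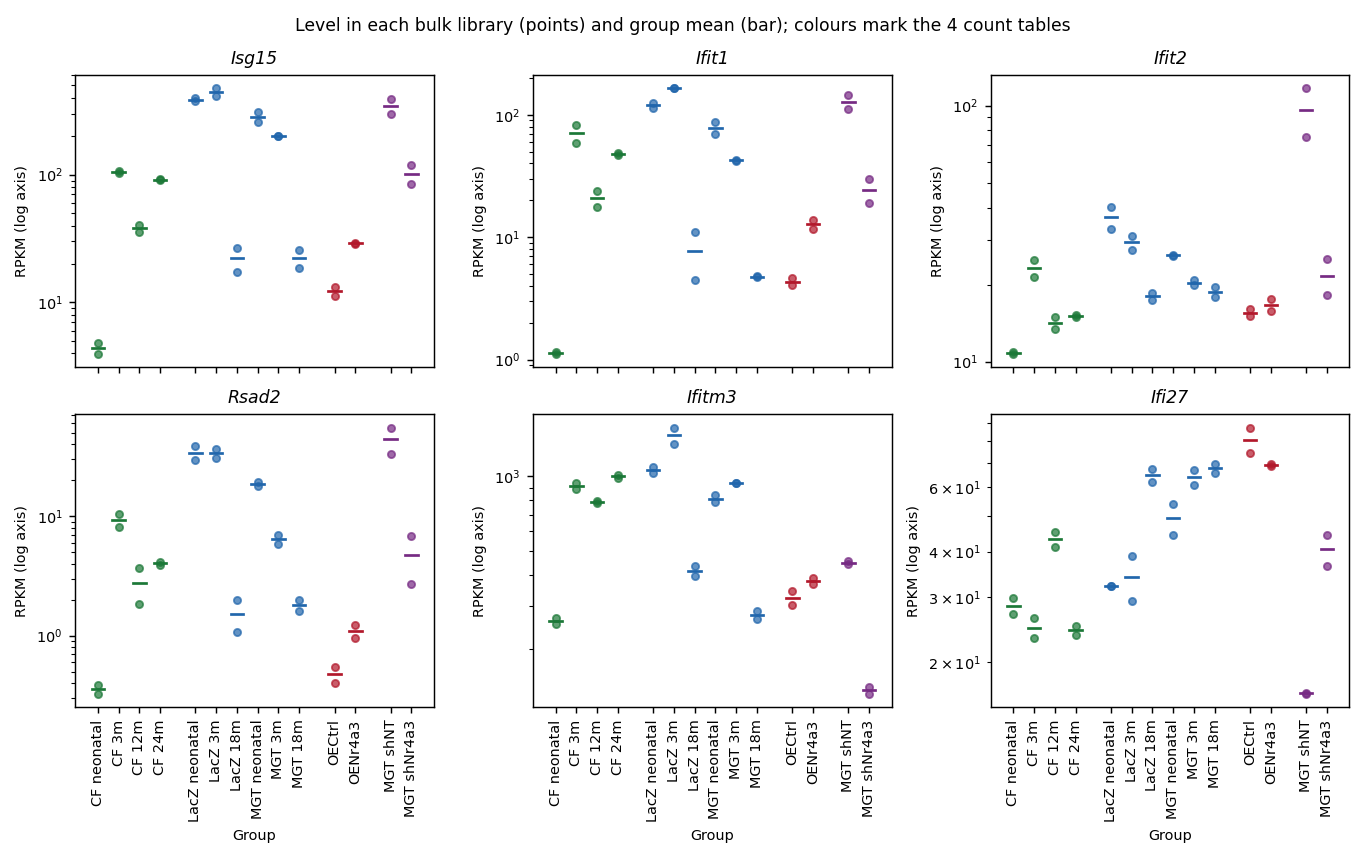
RPKM (log axis) of 6 members in each bulk library (points) with the group mean (bar), coloured by count table. Isg15, Ifit1 and Rsad2 are low in neonatal CFs and high in neonatal and 3-month LacZ cells, Ifit2 spans a narrow range outside the shNT libraries, and Ifi27 is higher in 18-month than in neonatal LacZ cells, where the others are lower.

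In LacZ and MGT cells the order of the ages was another one: 18-month cells lay far below both neonatal and 3-month cells. In LacZ cells 35 of the 36 members fell from neonatal to 18 months and 1 rose, with a median log2FC of -2.86, where 18.3% of all genes fell and 16.7% rose. From 3 to 18 months 35 fell and 1 rose, with a median of -3.29, where 12.2% of all genes fell and 10.8% rose. In MGT cells 35 fell and 1 rose from neonatal to 18 months (median -2.69, all genes 16.2% down and 14.4% up), and 32 fell from 3 to 18 months (median -2.14, all genes 9.29% down). Where a gene rose it was Ifi27. Its rise in MGT cells (0.46) was not called without replicate 1 of the neonatal or replicate 2 of the 18-month MGT cells (adjusted p = 0.0565 to 0.0829). These comparisons share their older or younger libraries with each other.

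Isg15 was at 265 and 279 CPM in neonatal, 288 and 336 CPM in 3-month and 12.3 and 18.8 CPM in 18-month LacZ cells. The 18-month pair lay far below the other groups, and its libraries differed from each other by a larger ratio than those of the other pairs. The fall from neonatal cells was 17.5-fold (log2FC -4.13 ± 0.20, adjusted p = 2.65e-08). Against neonatal LacZ cells the 6 largest changes were -5.18 for Ifi27l2a, -4.98 for Ifi44, -4.76 for Ifit3, -4.61 for Ifit3b, -4.49 for Rsad2 and -4.35 for Cmpk2. Ifi27l2a, the largest, went from 31.2 and 30.3 CPM in neonatal to 0.985 and 0.684 CPM in 18-month cells. Its neighbour Ifi27 went the other way, from 47.4 and 47.3 CPM to 98.6 and 91.2 CPM (log2FC 1.00 ± 0.11, adjusted p = 1.7e-07). The smallest falls were those of Trim25 (-0.98), Ifit2 (-1.02), Ifitm3 (-1.35) and Eif2ak2 (-1.49).

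Differences between role groups were not tested here either. The Ifit group ran from -4.76 for Ifit3 to -1.02 for Ifit2, the OAS group from -3.64 for Oasl2 to -2.13 for Oasl1 and the ISG15 system from -4.13 for Isg15 to -0.98 for Trim25. Parp9, Parp14 and Dtx3l fell by similar amounts (-2.77 for Parp9, -2.88 for Parp14 and -2.81 for Dtx3l) and Parp12 by less (-2.14). Bst2 changed by -3.37, more than Lgals3bp (-1.92) and Ifitm3. Among the rest Ifi44 (-4.98) and Eif2ak2 stood at the ends. In MGT cells the 6 largest changes from neonatal to 18 months were -4.88 for Ifi44, -4.76 for Ifit3, -4.74 for Ifit3b, -4.55 for Ifi27l2a, -4.04 for Ifit1 and -4.00 for Mx2. From 3 to 18 months they were -4.34 for Ifi27l2a, -4.34 for Ifi44, -3.56 for Oas2, -3.35 for Rtp4, -3.23 for Oasl2 and -3.17 for Isg15 in MGT and -5.23 for Mx1, -4.99 for Ifi27l2a, -4.92 for Ifi44, -4.59 for Ifit3, -4.47 for Rsad2 and -4.43 for Ifit1 in LacZ cells. The fall of Ifit3b from 3 to 18 months in MGT cells was not called without replicate 1 of the 3-month or either of the 18-month libraries (adjusted p = 0.0619 to 0.103). Not called from 3 to 18 months in MGT cells were Ifit2 (-0.12), Ifi27 (0.08), Mx1 (-0.96) and Epsti1 (-1.60).

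From neonatal to 3 months fewer members changed in LacZ cells: 9 rose and Ifit2 fell (log2FC -0.33 ± 0.10, adjusted p = 0.0104), with a median log2FC of 0.13, where 15.1% of all genes rose and 15.8% fell. The 6 largest rises were 1.26 for Oasl1, 1.19 for Mx1, 0.96 for Ifi204, 0.96 for Oas2, 0.48 for Trim30a and 0.46 for Ifitm3. The call of Ifit2 was lost without replicate 2 of either group (adjusted p = 0.324 and 0.0653), and that of Oas2 without replicate 1 of either (adjusted p = 0.0581 to 0.0622). Without replicate 1 of the neonatal LacZ cells 6 members were called. In MGT cells 17 members fell and 3 rose over the same ages, with a median of -0.49, where 13.5% of all genes fell and 12.5% rose. The largest falls were -2.41 for Ifit3b, -2.15 for Ifit3, -1.81 for Mx1, -1.63 for Cmpk2, -1.53 for Rsad2 and -1.27 for Mx2, and the rises 0.49 for Ifi204, 0.38 for Ifi27 and 0.29 for Lgals3bp. Without replicate 1 of the neonatal MGT cells, or replicate 2 of the 3-month MGT cells, 13 members were called. The 3 rises were each lost without at least 1 library (adjusted p = 0.11 for Ifi204, 0.173 to 0.257 for Ifi27 and 0.0563 to 0.355 for Lgals3bp).

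Here too the marker lists differed with age. Macrophage markers summed to 222 to 282 CPM in neonatal, 337 to 344 CPM in 3-month and 356 to 381 CPM in 18-month LacZ cells, and to 184 to 258, 431 to 445 and 396 to 469 CPM in MGT cells. Endothelial markers summed to 316 to 348 CPM in neonatal and at most 17.3 CPM in adult LacZ cells. Fibroblast markers summed to 15990 to 16330, 15900 to 16720 and 8101 to 9138 CPM in LacZ cells of the 3 ages. The part of these lists in the fall was not tested.

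MGT lowered the list most clearly in 3-month cells. Against LacZ cells of the same age 34 members fell and Ifi27 rose, with a median log2FC of -1.19, where 8.39% of all genes fell and 8.99% rose. In neonatal cells 15 fell and Ifi27 rose, with a median of -0.49, where 3.24% of all genes fell and 4.26% rose. At 18 months 4 fell and 1 rose, with a median of -0.27, where 8.05% of all genes fell and 8.52% rose, a share of members near that of all genes. Cardiomyocyte markers summed to 4.49 to 5.18 CPM in LacZ and 359 to 388 CPM in MGT cells at 3 months, 293 to 340.1 and 1033 to 1532 CPM in neonatal cells and 3.48 to 5.85 and 332 to 348 CPM at 18 months. Epicardial and mesothelial markers summed to 8.63 to 9.26 and 88.1 to 92.8 CPM at 3 months, 655 to 714 and 332 to 357 CPM in neonatal cells and 13.7 to 14.9 and 68.8 to 77.5 CPM at 18 months. Fibroblast markers summed to 15900 to 16720 CPM in LacZ and 12700 to 13450 CPM in MGT cells at 3 months. The sums were 15990 to 16330 and 13020 to 13580 CPM in neonatal cells and 8101 to 9138 and 9671 to 11100 CPM at 18 months. The part of these 3 lists in the change with MGT was not tested.

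At 3 months the 6 largest changes were -3.83 for Mx1, -2.97 for Ifit3b, -2.91 for Ifit3, -2.40 for Rsad2, -2.36 for Cmpk2 and -2.14 for Mx2. Mx1 was at 17.5 and 12.4 CPM in LacZ and 1.18 and 0.896 CPM in MGT cells (log2FC -3.83 ± 0.34, adjusted p = 1.05e-08). Ifit3 was at 513 and 539 CPM and 73.3 and 66.7 CPM (log2FC -2.91 ± 0.26, adjusted p = 0.00018), and Rsad2 at 160 and 134 CPM and 30.1 and 25.6 CPM (log2FC -2.40 ± 0.22, adjusted p = 4.66e-05). The MGT libraries lay below the LacZ libraries without overlap for all 3 genes. Ifi27 was at 43 and 57.2 CPM and 89.4 and 98.2 CPM (log2FC 0.90 ± 0.12, adjusted p = 2.12e-06). Oas3 was the 1 member not called (log2FC -0.39 ± 0.17, adjusted p = 0.136). The groups ranged from -2.97 (Ifit3b) to -0.52 (Ifit2) in the Ifit genes, -1.62 (Oasl1) to -0.39 (Oas3) in the Oas genes, -1.38 (Usp18) to -0.44 (Uba7) in the ISG15 system and -1.40 (Parp14) to -1.02 (Parp9) in the PARP and DTX3L group. Bst2 (-0.83) and Lgals3bp (-0.42) marked the ends of the membrane and secreted group, and Epsti1 (-1.59) and Eif2ak2 (-0.60) those of the rest. The call of Usp18 was lost without replicate 1 or 2 of the MGT cells or replicate 2 of the LacZ cells (adjusted p = 0.18, 0.155 and 0.104). Those of Ifit1 (adjusted p = 0.0517 to 0.0572), Eif2ak2 (adjusted p = 0.0538 to 0.0689), Uba7 (adjusted p = 0.0924) and Epsti1 (adjusted p = 0.117 to 0.278) were lost without 1 or both of the MGT libraries, and Epsti1 also without LacZ replicate 2.

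In neonatal cells the largest changes were -1.56 for Ifi27l2a, -0.87 for Rsad2, -0.86 for Cmpk2, -0.85 for Ifi204, -0.69 for Samd9l and -0.62 for Trim30a. Ifi27l2a was at 31.2 and 30.3 CPM in LacZ and 11.8 and 8.96 CPM in MGT cells (log2FC -1.56 ± 0.16, adjusted p = 4.76e-08), and Ifi27 rose (log2FC 0.61 ± 0.12, adjusted p = 0.000743). The neonatal count depended on single libraries: it was 10 without LacZ replicate 1, 5 without LacZ replicate 2 and 5 without MGT replicate 2. The calls of Rsad2 and Cmpk2 were lost without LacZ replicate 2 or either MGT library (adjusted p = 0.112 to 0.234 and 0.123 to 0.289), and that of Samd9l without any library but MGT replicate 1 (adjusted p = 0.072 to 0.231). At 18 months the members called had log2FC of -0.99 for Ifi204, -0.85 for Rtp4, -0.59 for Ifitm3, -0.56 for Parp9 and 0.71 for Uba7. Uba7, which activates Isg15, was the 1 that rose, from 14.1 and 16.4 CPM to 22.8 and 27.1 CPM (log2FC 0.71 ± 0.13, adjusted p = 0.000349). The calls of Rtp4 and Parp9 were lost without LacZ replicate 2 (adjusted p = 0.317 and 0.395) or either MGT library, which left 3 calls. Without LacZ replicate 1 there were 14. In the 18-month LacZ pair replicate 2 was higher for 31 of the 36 members.

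The difference of the MGT effect between ages was tested as an interaction term. The effect was more negative at 3 months than in neonatal cells for 10 members, where 1.41% of all genes were called in that direction. The term for 18 against 3 months was positive for 12 members and negative for Ifi27 (log2FC -0.84 ± 0.16, adjusted p = 0.00358). Of all genes 1.56% and 0.782% were called up and down. Among the 12, Uba7 rose with MGT at 18 months, and the viperin locus there had a median log2FC of 0.10, not called. At 18 months against neonatal cells 2 members were called, both up, where 2.03% of all genes were. The largest terms for 18 against 3 months were 4.27 for Mx1, 2.64 for Rsad2, 2.31 for Cmpk2, 1.15 for Uba7, 1.10 for Dtx3l and 1.06 for Herc6. Mx1 was at 0.174 and 0.622 CPM in 18-month LacZ and 0.628 and 0.437 CPM in 18-month MGT cells, so its smaller change there began from a low level. In LacZ cells 35 of the 36 members were lower at 18 than at 3 months (median log2FC -3.29). The part of this lower start in the other terms was not tested. The first count was 4 without LacZ replicate 1 or MGT replicate 1 of the neonatal or without either of the 3-month MGT libraries. That for 18 against 3 months was 5 without replicate 2 of the 18-month MGT cells and 24 without replicate 2 of the 18-month LacZ cells. That for 18 months against neonatal was 0 without replicate 2 of the neonatal or of the 18-month MGT cells, and 1 without replicate 1 of the 18-month LacZ cells, replicate 1 of the 18-month MGT cells or replicate 2 of the neonatal LacZ cells. The Mx1 term for 18 against 3 months was lost without either 18-month MGT library (adjusted p = 0.0994 and 0.0506).

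**Figure D3:**
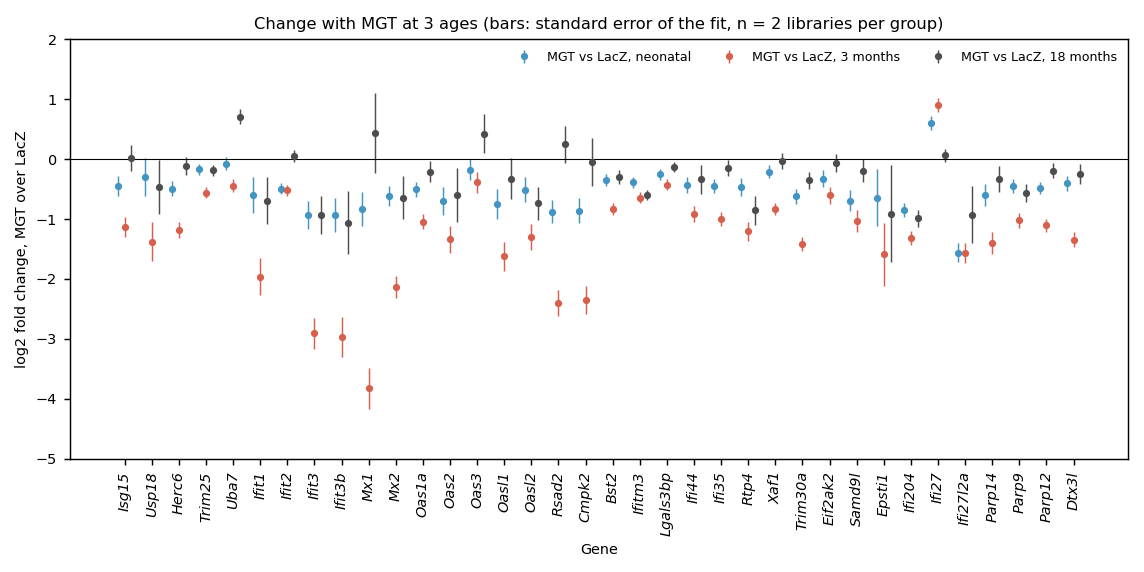
Log2 fold change of MGT over LacZ cells for each member at 3 ages, with the standard error of the fit. The 3-month points lie lowest for most genes, the 18-month points lie between -1.06 and 0.71, and the neonatal and 3-month points of Ifi27 lie above 0.

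Nr4a3 overexpression in neonatal CFs raised 22 of the 34 members tested, and none fell, with a median log2FC of 0.82. Over all 15029 genes the median was -0.01, and 11.9% rose and 1629 genes fell. No member was lower at an unadjusted p under 0.05 in edgeR, and none was called lower by DESeq2. Without OECtrl replicate 1, Ifi27 was called lower (log2FC -0.34, adjusted p = 4.24e-07). The 6 largest rises were 2.35 for Ifi44, 2.13 for Mx2, 1.85 for Oasl2, 1.80 for Oas2, 1.55 for Ifit1 and 1.52 for Rtp4. Ifi44 was at 2.63 and 1.85 CPM in OECtrl and 12.7 and 10 CPM in OENr4a3 cells (log2FC 2.35 ± 0.24, adjusted p = 0.000394). Isg15 was at 7.89 and 9.27 CPM and 20.5 and 20.1 CPM (log2FC 1.24 ± 0.15, adjusted p = 0.00107). Both OENr4a3 libraries exceeded both controls for these genes. Mx1 and Oas3 were too low to be tested. Mx1 had 26 counts in the OENr4a3 and 1 count in the OECtrl libraries, a ratio of 22.4 after scaling for depth (3.68 to 920, exact binomial interval of counting error).

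Of the Ifit genes Ifit1 rose in this comparison. It went from 10.7 and 12.3 CPM to 36.5 and 31 CPM (log2FC 1.55 ± 0.15, adjusted p = 0.000305), while Ifit3 was at 76.1 and 81.4 CPM and 83.7 and 73.7 CPM (log2FC -0.00123, adjusted p = 0.995) and Ifit2 at 62.9 and 59 CPM and 68.9 and 62 CPM (log2FC 0.10 ± 0.11, adjusted p = 0.514). The Ifit3 and Ifit2 libraries of the groups were close or overlapped, and Ifit3b was not called (log2FC 0.31 ± 0.13, adjusted p = 0.116). Whether Ifit1 and Ifit3 differed in their change was not tested. In the OAS group Oasl2 (1.85) and Oas2 (1.80) rose, while Oasl1 (log2FC 1.62 ± 0.59, adjusted p = 0.0742) and Oas1a (log2FC 0.58 ± 0.25, adjusted p = 0.12) were not called. All 4 PARP and DTX3L genes rose, from 0.49 for Parp12 to 0.95 for Parp14, and 4 of 5 ISG15 system genes, with Usp18 highest (1.47) and Herc6 (0.45) not called. Rsad2 rose (log2FC 1.19 ± 0.28, adjusted p = 0.0185), a call lost without OENr4a3 replicate 1 (adjusted p = 0.135), and Cmpk2 was not called (log2FC 1.16 ± 0.38, adjusted p = 0.0552). The calls of Bst2 and Parp12 were lost without either OENr4a3 library (adjusted p = 0.222 to 0.284 and 0.181 to 0.183), and that of Uba7 without replicate 2 (adjusted p = 0.0738). Lgals3bp (1.00) and Bst2 (0.41) rose and Ifitm3 (0.22, adjusted p = 0.142) was not called. Ifi27 (-0.23), Ifi27l2a (0.47), Ifi35 (0.02) and Epsti1 (0.58) were not called either. Macrophage markers summed to 994 to 1014 CPM in OECtrl and 652 to 676 CPM in OENr4a3 cells. Epicardial and mesothelial markers summed to 971 to 1032 and 437 to 469 CPM, cardiomyocyte markers to 455 to 501 and 268 to 293 CPM, and pericyte and smooth muscle markers to 61.5 to 82.6 and 131 to 138 CPM. Xist was at 224 to 282 and 483 to 484 CPM. The part of these lists and of Xist was not tested.

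The Nr4a3 hairpin in 3-month MGT cells lowered 32 members, and Ifi27 rose, with a median log2FC of -1.78, where 26.7% of all 18045 genes fell and 27.9% rose. The 6 largest changes were -3.85 for Oasl1, -3.78 for Cmpk2, -3.58 for Oas2, -3.52 for Parp14, -2.85 for Ifi204 and -2.76 for Oas3. Oas2 was at 50.4 and 61.2 CPM with shNT and 4.95 and 4.39 CPM with shNr4a3 (log2FC -3.58 ± 0.14, adjusted p = 4.39e-10). Parp14 was at 337 and 434 CPM and 37.7 and 29.5 CPM (log2FC -3.52 ± 0.15, adjusted p = 1.47e-08). Neither pair overlapped. Isg15 was at 224 and 294 CPM and 89.5 and 64.3 CPM (log2FC -1.75 ± 0.19, adjusted p = 0.000202). Ifit2 was at 297 and 461 CPM and 98.5 and 71.4 CPM (log2FC -2.16 ± 0.30, adjusted p = 0.00557), though its call was lost without either shNr4a3 library (adjusted p = 0.162 and 0.17). The falls of Ifit3 (adjusted p = 0.0528 to 0.179) and Mx2 (adjusted p = 0.121) were lost without shNT replicate 2, and that of Ifit3 also without replicate 1. That of Ifit3b was lost without shNT replicate 2 or either shNr4a3 library (adjusted p = 0.0876 to 0.169). The call of Cmpk2 was likewise lost without either shNr4a3 library (adjusted p = 0.126 and 0.127).

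The PARP and DTX3L genes fell by unequal amounts, a difference that was not tested. Parp14 fell 11.5-fold but Parp9 1.66-fold, Parp12 1.95-fold and Dtx3l 3.05-fold. Parp9 and Dtx3l share 9.4% of the exonic bases of Parp9 on opposite strands, so reads there cannot be told apart without strand. Xaf1, a proapoptotic gene, did not follow the list: it was at 73.6 and 88.3 CPM with shNT and 81.8 and 75.5 CPM with shNr4a3 (log2FC -0.04 ± 0.10, adjusted p = 0.748). Ifi27 was at 24.1 and 24 CPM and 65.2 and 53.8 CPM, 2.47-fold higher with the hairpin (log2FC 1.30 ± 0.11, adjusted p = 4.34e-07). Mx1 (log2FC -4.17 ± 1.06, adjusted p = 0.0753) and Rsad2 (log2FC -3.23 ± 0.71, adjusted p = 0.0584) had large differences that were not called. Their shNr4a3 libraries differed from each other, with Mx1 at 4.83 and 0.628 CPM and Rsad2 at 29.4 and 11.7 CPM, and at 36.9 and 61 CPM and 144 and 240 CPM with shNT. The smallest falls were -0.72 for Rtp4, -0.73 for Parp9, -0.74 for Bst2, -0.78 for Ifi35 and -0.84 for Lgals3bp. In the ISG15 system Usp18 (-2.59) and Uba7 (-1.01) marked the ends, in the Oas genes Oasl1 (-3.85) and Oas1a (-1.51), and among the rest Ifi204 (-2.85) fell most. Replicate libraries parted over the list as a whole: shNT replicate 2 was higher for 33 and shNr4a3 replicate 1 for 30 of the 36 members. Macrophage markers summed to 129 to 164 CPM with shNT and 113 to 118 CPM with shNr4a3, and cardiomyocyte markers to 9414 to 11000 and 5446 to 6243 CPM. Pericyte and smooth muscle markers summed to 47.5 to 51 and 106 to 117 CPM, and fibroblast markers to 5159 to 5369 and 6948 to 7340 CPM. The MGT factors themselves were lower with shNr4a3. Mef2c was at 167 to 188 and 106 to 134 CPM, Gata4 at 125 to 133 and 95.2 to 104 CPM, and Tbx5 at 204 to 238 and 163 to 180 CPM. The part of the markers and of the MGT factors in the fall was not tested.

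**Figure D4:**
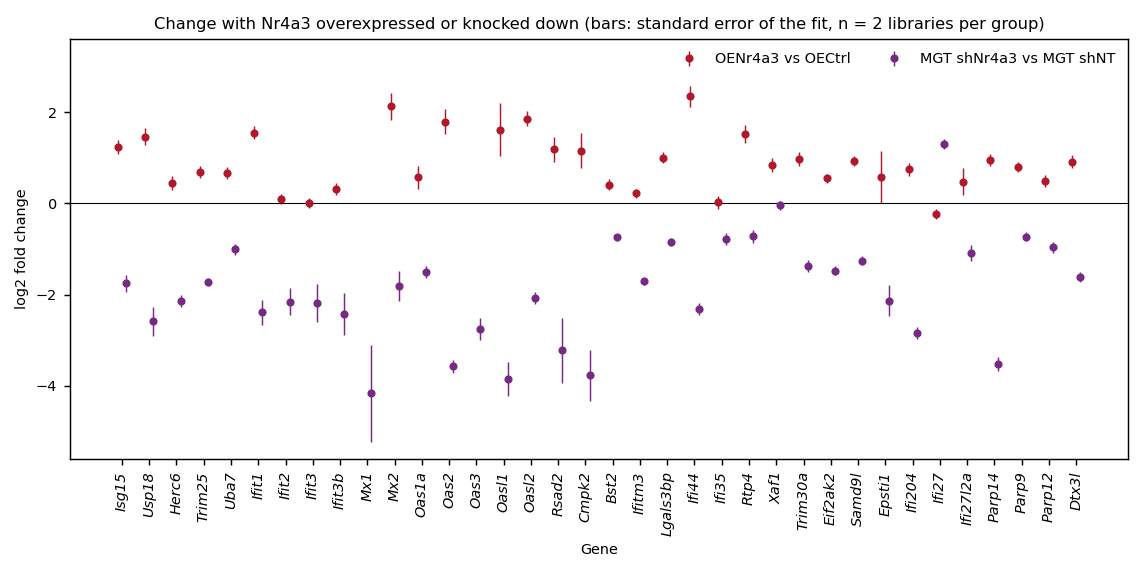
Log2 fold change of each member with Nr4a3 overexpressed in neonatal CFs and with Nr4a3 knocked down in 3-month MGT cells, with the standard error of the fit. Most overexpression points lie above 0 and most knockdown points below it. Xaf1 in the knockdown and Ifit3 in the overexpression lie at 0, and Ifi27 lies on the opposite side of the list in the knockdown.

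Other genes of the pathway moved with the effectors in part. Of 11 signalling genes (kinases and transcription factors), 7 rose and 2 fell in 3-month against neonatal CFs, where 28.0% of all genes rose and 24.4% fell. Irf7, itself an interferon-stimulated factor, rose (5.65 to 92.1 CPM, log2FC 4.01 ± 0.09, adjusted p = 6.44e-27), while Irf3 (47.7 to 38.5 CPM, log2FC -0.31 ± 0.07, adjusted p = 0.000271) and Irf8 (10.7 to 4.48 CPM, log2FC -1.25 ± 0.15, adjusted p = 2.31e-08) fell. Among 12 sensors of nucleic acid and their adaptors 9 rose and 2 fell. Of the 10 interferon genes 1 (Ifnb1) was high enough to be tested, and only in the knockdown. Of the 6 receptor chains, Ifnar1, Ifnar2 and Ifngr1 rose and Ifngr2 and Ifnlr1 fell. Of 5 inhibitors of the pathway beside Usp18, Socs1, Socs3 and Ptpn2 rose and Ptpn6 fell.

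In LacZ cells from neonatal to 18 months Irf7 fell (184 to 13.9 CPM, log2FC -3.72 ± 0.25, adjusted p = 7.77e-06), 1 of 6 among the 11 signalling genes, while Jak1 and Jak2 rose, where 18.3% of all genes fell and 16.7% rose. With MGT at 3 months 6 of the 11 signalling genes and 6 of the 12 sensors fell and none rose, where 8.39% of all genes fell and 8.99% rose. With Nr4a3 overexpressed, where 11.9% of all genes rose, 6 of the 11 signalling genes rose, among them Irf7 (6.83 to 15.8 CPM, log2FC 1.21 ± 0.17, adjusted p = 0.00209), and no receptor was called. With the hairpin, where 26.7% of all genes fell and 27.9% rose, 9 of the 11 signalling genes, 10 of the 12 sensors and 3 of the 6 receptors fell, and 1 sensor gene (Mavs) and 1 receptor (Ifngr2) rose. Of the 5 inhibitors Socs3, Pias1, Ptpn2 and Ptpn6 fell. Irf7 fell (386 to 73 CPM, log2FC -2.40 ± 0.09, adjusted p = 5.34e-10). Ifnb1, the gene of interferon beta, averaged 0.313 CPM with shNT and had no read with shNr4a3 (adjusted p = 0.00344).

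In the single-cell libraries, both of MGT-treated cells, most members were lower at 24 months than in neonatal cells. With n = 1 library per age there is no test, and intervals (95%, exact Poisson) cover counting error only. The kept cells numbered 3828 and 5773, and 11 barcodes occurred in both libraries. Of the 23 members with at least 50 CPM in either library, 13 were lower at 24 months by more than 2-fold. None was higher by that much. Of all 3305 such genes 6.29% were lower and 7.14% higher by more than 2-fold. Members and other genes could enter these counts through the age at which they were high. Ifit2, Ifit3b and Usp18 did so, at 36.1, 46.0 and 44.8 CPM in the 24-month library. The count of 13 therefore describes the values and is no separate support for a fall. Median log2 ratios were -1.2 for the members and -0.0475 for all genes. Isg15 was at 568 CPM (564 to 573) in the neonatal and 251 CPM (248 to 254) in the 24-month library (ratio 0.442, 0.436 to 0.447). Ifi44 had the lowest ratio, at 294 CPM (291 to 297) in the neonatal and 50.2 CPM (49.1 to 51.4) in the 24-month library (ratio 0.171, 0.167 to 0.175), and Xaf1 the next, at 240 CPM (237 to 243) in the neonatal and 54.1 CPM (52.9 to 55.3) in the 24-month library. Rsad2 (ratio 0.615, 0.601 to 0.629), Ifitm3 (ratio 0.561, 0.559 to 0.564) and Lgals3bp (ratio 0.779, 0.769 to 0.789) were lower by less than 2-fold.

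Ifi27 again stood apart, and here Ifi27l2a did as well. Ifi27 was at 253 CPM (250 to 256) in the neonatal and 259 CPM (257 to 262) in the 24-month library (ratio 1.03, 1.01 to 1.04). Ifi27l2a, which had followed the list in bulk CFs and LacZ cells, was at 692 CPM (687 to 697) in the neonatal and 1250 CPM (1240 to 1250) in the 24-month library (ratio 1.8, 1.79 to 1.82), the highest ratio of the 23.

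The makeup of the libraries differed: macrophage markers summed to 1280 CPM in the neonatal and 3700 CPM in the 24-month library, and cardiomyocyte markers to 7640 and 92.8 CPM. Members were therefore also compared within rebuilt cell classes. Fibroblast-like cells, with all 8 fibroblast markers detected, numbered 1298 and 2905, and came mostly from different clusters at the 2 ages (cluster 0 for neonatal, clusters 7 and 10 for 24-month cells, with cluster 2 in both). The name rests on detection of the markers, of which 6 were also detected in cardiomyocyte-like cluster 1. Their median log2 ratio to all other cells was -0.52 in cluster 0 and 1.24 in cluster 7. In fibroblast-like cells 13 of 23 members were lower by more than 2-fold, where 4.90% of all 3325 genes were. Isg15 was at 575 CPM (570 to 581) in the neonatal and 281 CPM (278 to 284) in the 24-month library, and Ifi27l2a at 769 CPM (763 to 775) in the neonatal and 1350 CPM (1350 to 1360) in the 24-month library. Macrophage-like cells of 1 cluster, with all 11 macrophage markers detected, numbered 198 and 823. In them 23 of 28 members were lower by more than 2-fold, where 4.28% of all 2898 genes were. Here too members could enter the counts of either class through the neonatal library alone. Cmpk2 did so in macrophage-like cells (99.9 CPM neonatal, 18.7 CPM at 24 months), as did Oas3. Ifit2 did so in fibroblast-like cells (119 CPM neonatal, 40.0 CPM at 24 months). These counts describe the values and are no separate support for a fall. Oas3 was at 131 CPM (122 to 141) in the neonatal and 10.8 CPM (9.36 to 12.3) in the 24-month library and Ifi204 at 321 CPM (307 to 336) in the neonatal and 50.4 CPM (47.3 to 53.7) in the 24-month library. Ifi27l2a there was at 844 CPM (820 to 868) in the neonatal and 692 CPM (681 to 704) in the 24-month library (ratio 0.821, 0.794 to 0.848), below 1 where it was above 1 in fibroblast-like cells. Ifi27 was slightly higher at 24 months in both classes, with a ratio 1.14, 1.06 to 1.22, in macrophage-like and a ratio 1.24, 1.22 to 1.27, in fibroblast-like cells. Xist was at 154 CPM in neonatal cluster 0 and 0.0309 CPM in 24-month cluster 7. In macrophage-like cells it was at 288 CPM in the neonatal and 0.0518 CPM in the 24-month library. Age and the presence of cells with Xist cannot be told apart here.

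Some members were higher in macrophage-like cells. In the neonatal library Epsti1 was at 104 CPM in macrophage-like and 2.13 CPM in fibroblast-like cells, and Oas3 at 131 and 11.3 CPM. Ifi44 was the other way round, at 37.1 and 301 CPM, and so were Isg15 (185 and 575 CPM) and Bst2 (1480 and 2280 CPM). These are single values per class, without replicates.

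Within the 24-month fibroblast-like cells 1 cluster (number 10, 523 cells of that library) had the members Cmpk2 and Rsad2, the chemokine gene Cxcl10 and Saa3 among its leading genes, so its levels describe it and show nothing further. In it Isg15 was at 640 CPM and Rsad2 at 423 CPM, against 214 and 24.5 CPM in the larger cluster 7 of the same library (2192 cells) and 600 and 141 CPM in the neonatal cluster 0 (1164 cells). Xaf1 in cluster 10 was at 85.5 CPM, beside 241 CPM in neonatal cluster 0, and Ifi27 was at 261 CPM, beside 255 CPM in cluster 7.

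**Figure D5:**
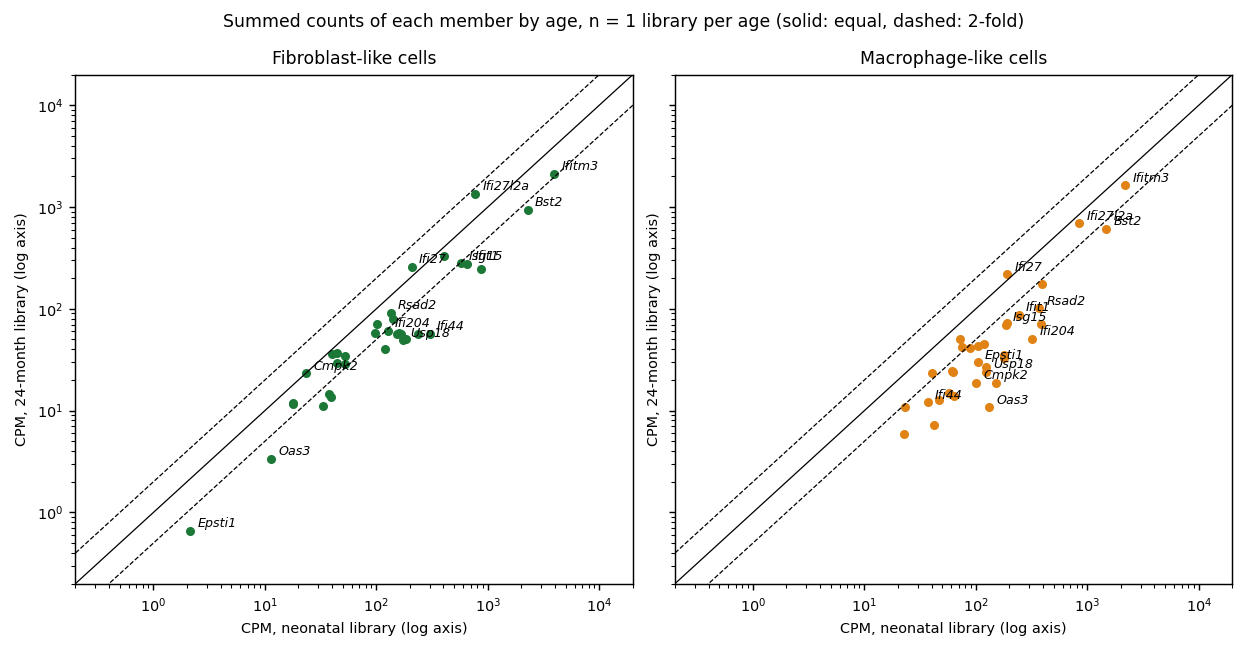
Summed CPM (log axes) of each member in the neonatal library against the 24-month library, in fibroblast-like and macrophage-like cells, with lines of equality (solid) and 2-fold difference (dashed). Most points lie below the solid line in both classes. Ifi27l2a lies above it in fibroblast-like and below it in macrophage-like cells.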

How the data were processed

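Members, role groups and pathway lists were chosen with earlier results of these data known. The deposited bulk tables give raw counts per gene. Trimmomatic 0.36, Subread 1.5.1 with featureCounts and build mm10 are named in the submitters' processing notes, and the aligner is not given in the sources used here. Kits were stranded, per the labels' protocols, but strand use in counting is not stated. RPKM was computed with the gene lengths of the deposited tables. Columns were matched to labels by name, which differ for 12-month CFs (13m) and 18-month cells (15m), for OECtrl (GFP) and for MGT (D3). The 4 columns matching no sample and the deposited FPKM were not used. Every table had its own fit in edgeR 4.0.16 (R 4.3.3; filterByExpr, TMM, robust quasi-likelihood, all groups), with adjusted p (Benjamini-Hochberg) over all genes. Alternatives were DESeq2 1.42.0, no TMM factors, no low-count filter, only the groups compared, a replicate block and each library left out. Same-numbered replicates did not deviate together (correlations -0.0776 to 0.0694).

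The deposited single-cell matrices hold UMI counts. Kept barcodes had 500 genes or more and no more than 20% mitochondrial UMIs (3828 of 4816 neonatal, 5773 of 6796 24-month, with medians of 13959.5 and 20771 UMIs). They were clustered with scanpy 1.11.5 (2000 variable genes, 50 components, 15 neighbours, Leiden resolution 0.5). Classes were rebuilt from marker lists, doublets were not removed, and clusters 4, 6 and 8 stayed unnamed. Named genes were the 6 largest called changes of a comparison, members called against the majority, members not called where at least 75% were called, and the ends of role groups, the last given for 5 main comparisons. The edgeR fit was tested on counts simulated from the CF table. A signalling gene and a motif search are not reported here.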

Additional observations from a re-analysis of the deposited data

Results flagged for a closer look

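The change with MGT over LacZ differed between ages by its interaction term in edgeR (adjusted p under 0.05). For 3 months minus neonatal 10 members were called, with log2 terms of -1.98 for Ifit3, -2.998 for Mx1, -1.52 for Mx2, -1.52 for Rsad2, -1.49 for Cmpk2, -0.62 for Xaf1, -0.62 for Parp12, -0.94 for Dtx3l, -0.68 for Herc6 and -0.79 for Trim30a. Of all genes 1.41% were called down for 3 months minus neonatal. For 18 months minus neonatal 2 members were called, 0.55 for Ifit2 and 0.79 for Uba7, where 2.03% of all genes were called up. Among all genes, 1.56% were called up and 0.782% down for 18 minus 3 months. For 18 minus 3 months 13 members were called, 0.57 for Ifit2, 4.27 for Mx1, 0.84 for Oas1a, 2.64 for Rsad2, 2.31 for Cmpk2, -0.84 for Ifi27, 0.84 for Ifi35, 0.80 for Xaf1, 0.91 for Parp12, 1.10 for Dtx3l, 1.06 for Herc6, 1.06 for Trim30a and 1.15 for Uba7. The Ifit2 terms were the least firm, with adjusted p = 0.0272 at 18 months minus neonatal, where the call was lost in 7 of 8 fits without 1 library. The counts without single libraries were 4 to 15, 0 to 3 and 5 to 24.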

How the results depend on the processing

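No called member changed sign in any alternative run, and 6370 of 6820 values of single members stayed on their side of the threshold, 281 lost a call and 169 gained one. Without the filter on low counts the number of members called was 25 for MGT against LacZ in neonatal cells, 9 at 18 months, 20 for the MGT effect at 3 months minus neonatal, 5 at 18 months minus neonatal and 20 at 18 minus 3 months, the cause of which was not tested. With only the groups compared it was 8 for MGT against LacZ at 18 months and 18 for the MGT effect at 3 months minus neonatal. Leaving out 1 library gave 13 to 22 members for 24- against 3-month CFs, 5 to 16 and 3 to 14 for MGT against LacZ in neonatal and 18-month cells, 4 to 15, 0 to 3 and 5 to 24 for the MGT effect at 3 months minus neonatal, 18 months minus neonatal and 18 minus 3 months, 13 to 20 for MGT cells and 6 to 12 for LacZ cells at 3 months against neonatal. With a lone library a group was assumed to vary like the others. With the replicate block the count for the hairpin was 24 in place of 33, and the other counts moved by at most 1. In single cells 13 members were past 2-fold with all barcodes and with fibroblast-like cells alone, and 17 with genes from 10 CPM. Genes such as Epsti1, Mx1 and Oas3 had few counts in some tables, which limits what their missing calls show there. Mx1 was not low with shNT, and its shNr4a3 libraries differed from each other.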
